A study of Homo sapiens with 12 samples.

Results

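The apoptosis machinery was followed through 38 genes, listed by name for their known roles, of the 62696 genes in the count tables. The list was chosen with earlier results of these data known. They comprise 5 pro-survival BCL2 proteins, 3 BCL2 effectors, 8 BH3-only proteins, 4 other BCL2-like proteins, 7 caspases, 2 inhibitors of apoptosis with 1 mitochondrial antagonist, 2 apoptosome genes, 4 adaptors and regulators of death complexes, and 2 necroptosis genes. RNA-seq had been performed on SKBR3 and MDA-MB-453, a pair of human breast cancer cell lines of the HER2 subtype, with 3 untreated (UT) and 3 TWEAK-treated biological replicates of each. TWEAK is a TNF-family ligand of the receptor Fn14, which is encoded by TNFRSF12A. Treated cells had been starved in Opti-MEM for 8 h and then given TWEAK at 10 ng/ml for 48 h, with fresh ligand after 24 h. The labels carry this same protocol for the UT samples and do not say whether those received the medium changes alone. No group carries a genetic alteration made for the experiment, and each line stands for the cells of 1 tumour. The questions addressed here were which of these genes changed with TWEAK in each line, whether the change differed between the lines, and from what untreated levels each line started.

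Apoptosis runs along an extrinsic and an intrinsic route. In the extrinsic route, death receptors of the TNF family gather adaptors such as FADD and TRADD with the kinase RIPK1 and activate CASP8, a step that CFLAR restrains. In the intrinsic route, BH3-only proteins relieve the restraint that pro-survival BCL2 proteins place on the effectors BAX and BAK1, mitochondria release cytochrome c (CYCS), and APAF1 assembles CASP9 into the apoptosome. XIAP blocks active caspases and DIABLO displaces it, whereas RIPK3 and MLKL carry out necroptosis, a lytic death that proceeds without caspases. TWEAK is best known for signalling to NF-κB, and it can be either pro-survival or pro-death depending on the cell.

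Total counts ranged from 24773003 to 35208304 per library. Levels are given as CPM, that is, counts scaled to the library total, with TMM library factors computed over all 12 libraries. The epithelial markers EPCAM, KRT8, KRT18 and KRT19 and the HER2 gene ERBB2 were abundant in every library, while CDH1 had at most 7 counts in any SKBR3 library. The leukocyte markers PTPRC, CD3E and CD68 had at most 5 counts in any library. TWEAK replicate 2 stood apart in SKBR3. Compared with TWEAK replicates 1 and 3 over all genes, it gave a chi-square per degree of freedom of 18.7 and 21.1, while those replicates gave 2.09 with each other. The median deviation of this library from the mean of its line was -0.15 on the log2 scale for long genes and 0.10 for short genes, and 0.13 for GC-rich and -0.14 for GC-poor genes. UT replicate 3 of SKBR3 stood apart by less, with 5.20 and 3.91 against the other UT replicates, which gave 1.70 with each other. Its median deviation was 0.058 for GC-rich and -0.047 for GC-poor genes, and it was the highest UT replicate for BBC3, TRADD and RIPK3. BBC3 and TRADD were still called without it. TWEAK replicate 2 of MDA-MB-453 gave 9.20 and 4.85, and the other TWEAK replicates 2.67 with each other. The replicates were bulk RNA, in which fewer cells of a kind and less RNA per cell cannot be told apart.

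In SKBR3, TWEAK raised CASP4, BBC3, TRADD and BID and lowered BMF. CASP4 changed most, doubling in level with a fold change of 2.0, while the other changes were 1.53-fold or smaller. Of the 38 members, 33 passed the filter on low counts, and 5 of these (15.2%) passed an adjusted p of 0.1 in edgeR's quasi-likelihood test, compared with 10.4% of all genes tested. For increases the count was 4 members, where 6.60% of all genes rose, and for decreases 1 member, where 3.82% of all genes fell. The median log2 fold change of the members was 0.062, against -0.0074 over all genes. The TWEAK and UT replicates did not overlap for 14 of the 33 members (42.4%), 12 of them higher with TWEAK and 2 lower, compared with 26.5% of all genes tested (14.4% higher and 12.2% lower). Because the members were chosen with earlier results of these data known, such shares describe the listed genes only. The number of increases was 1 without UT replicate 1 or UT replicate 2, CASP4 alone, and 8 without TWEAK replicate 2. The share of all genes called in either direction was 6.11%, 5.76% and 17.4% in these settings.

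CASP4 (ENSG00000196954; hg38 chromosome 11, 104942866 to 104969366, minus strand) encodes an inflammatory caspase that senses cytosolic lipopolysaccharide and cleaves gasdermin D in pyroptosis. It was detected at 9.73, 9.72 and 9.97 CPM in the UT replicates of SKBR3 and at 18.7, 22.1 and 18.4 CPM in the TWEAK replicates. The lowest TWEAK replicate therefore lay well above the highest UT replicate. It rose by 1.0 on the log2 scale (standard error 0.095, adjusted p = 5.17e-05), and by 0.92 without TWEAK replicate 2. CASP4 remained past the threshold in all 15 alternative settings, with log2 fold changes from 0.92 to 1.06. No other annotated gene shares exonic bases with it.

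Of the 7 BH3-only genes tested, 3 were called, a group of few genes beside the 10.4% called over all genes. BBC3 (ENSG00000105327; chromosome 19, 47220822 to 47232766, minus strand) encodes PUMA, a BH3-only protein known as a p53 target. Its levels were 6.86, 6.54 and 8.33 CPM in UT and 10.7, 13.1 and 9.43 CPM in TWEAK replicates of SKBR3. The groups did not overlap, although UT replicate 3 and TWEAK replicate 3 lay close to each other. BBC3 rose by 0.61 on the log2 scale (standard error 0.14, adjusted p = 0.0209). The adjusted p was 0.102 without UT replicate 1 and 0.111 without UT replicate 2, the alternatives together giving 1.05e-05 to 0.111.

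BID (ENSG00000015475; chromosome 22, 17734138 to 17774770, minus strand) encodes the protein through which CASP8 engages mitochondria. It moved from 24.9, 22.5 and 23.0 CPM to 25.8, 29.1 and 30.6 CPM. The groups were separated by less than the spread within either of them. The increase of BID was 0.27 on the log2 scale (standard error 0.084, adjusted p = 0.0845), the smallest of the 5 changes in size. This call did not hold without UT replicate 1, 2 or 3 or TWEAK replicate 3, where the adjusted p was 0.136, 0.323, 0.208 and 0.224. It was also lost with the replicate number as a block (0.181) and with that block and a correction for GC content and length (0.129). The alternatives together gave 0.0221 to 0.323.

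BMF (ENSG00000104081; chromosome 15, 40087890 to 40108892, minus strand) encodes a BH3-only protein associated with the cytoskeleton and with loss of attachment. It fell from 36.5, 40.3 and 38.4 CPM to 31.9, 31.2 and 31.8 CPM, and was the only member that passed the test in the downward direction. The TWEAK replicates were nearly identical and lay below every UT replicate. The change of BMF was -0.29 on the log2 scale (standard error 0.067, adjusted p = 0.0244), with an adjusted p of 0.172 without UT replicate 2, the highest in a range that began at 0.00174. The remaining tested BH3-only genes, BAD, BIK, PMAIP1 (NOXA) and BCL2L11 (BIM), had log2 fold changes between 0.018 and 0.19 and overlapping groups, and HRK did not pass the filter on low counts.

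Among the death-complex genes, TRADD (ENSG00000102871; chromosome 16, 67154185 to 67159909, minus strand), the adaptor of TNF receptor 1, passed the test. Its levels were 8.44, 9.60 and 11.0 CPM in UT and 13.3, 14.5 and 12.6 CPM in TWEAK replicates. Every TWEAK replicate was higher than every UT replicate. TRADD rose by 0.47 on the log2 scale (standard error 0.11, adjusted p = 0.0240), with adjusted p-values of 0.127 without UT replicate 1 and 0.105 without UT replicate 2, the alternatives together giving 7.69e-04 to 0.127. FADD, CFLAR and RIPK1 also had TWEAK replicates entirely above their UT replicates, with log2 values of 0.18, 0.20 and 0.18, but adjusted p-values of 0.167, 0.123 and 0.198. All 4 genes of the group had an unadjusted p under 0.05, as did 3088 of the 15661 genes tested, and 1 of them passed the adjusted threshold. Without TWEAK replicate 2, CFLAR had an adjusted p of 0.00255 and RIPK1 of 0.0926, where the alternatives together gave 0.00255 to 0.348 and 0.0662 to 0.471. FADD passed only with all 12 libraries in 1 fit (0.0336), and its adjusted p reached 0.477 in the alternatives.

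**Figure D1:**
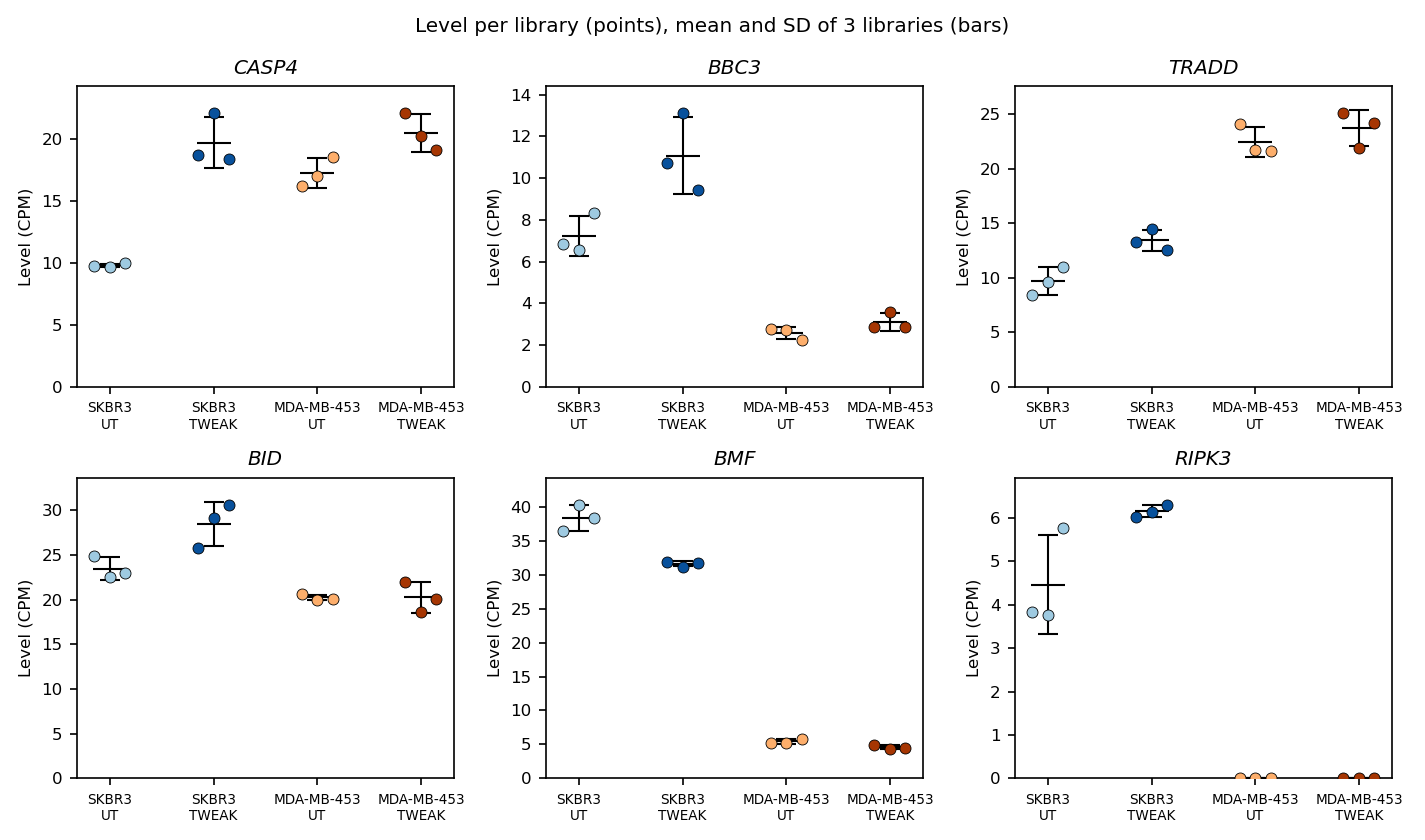
Levels in CPM (vertical axes, starting at 0) of the 5 genes called in SKBR3 and of RIPK3, by group on the horizontal axis; points are libraries, and horizontal marks with bars are the mean and SD of 3 libraries. In SKBR3 the TWEAK replicates of CASP4 sit between 18.4 and 22.1 CPM and the UT replicates between 9.72 and 9.97 CPM, and RIPK3 is at 0 in all 6 MDA-MB-453 libraries.

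None of the pro-survival genes passed the test in SKBR3 with all libraries. MCL1, the most abundant of them, was at 372, 376 and 358 CPM in UT and 414, 383 and 403 CPM in TWEAK replicates. The groups did not overlap, but the log2 change was 0.11 (95% interval -0.012 to 0.24, adjusted p = 0.304). MCL1 passed without TWEAK replicate 2 (log2 change 0.14, adjusted p = 0.0262) and under the correction for GC content and length (0.0745), and its highest adjusted p was 0.619. The log2 changes of BCL2L1 (BCL-XL) and BCL2L2 (BCL-W) were 0.025 and -0.030, with intervals of -0.12 to 0.17 and -0.18 to 0.12. BCL2 itself, at 2.55, 3.10 and 2.43 CPM in UT and 1.62, 1.64 and 2.59 CPM in TWEAK replicates, overlapped between the groups, and its log2 change of -0.47 had a wide interval, -0.93 to -0.015. BCL2 passed as lower without TWEAK replicate 3 (log2 change -0.72, adjusted p = 0.0607), where the alternatives together reached 0.585.

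The effectors did not pass either. BAX was at 22.6, 21.2 and 22.1 CPM in UT and 24.8, 30.9 and 25.1 CPM in TWEAK replicates, so that all TWEAK replicates were higher and TWEAK replicate 2 was the highest. Its log2 fold change was 0.29 (adjusted p = 0.110), or 0.18 (adjusted p = 0.103) without TWEAK replicate 2, and the adjusted p lay between 0.0426 and 0.354 in all alternatives. The log2 changes of BAK1 and BOK were -0.050 and 0.086, with overlapping groups. Of the other BCL2-like genes, BCL2L12 and BCL2L13 changed by 0.036 and 0.062. BCL2L15, with few counts, changed by -0.54 (adjusted p = 0.395), and none of them was called.

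The other caspases that could be tested were CASP2, CASP6, CASP8 and CASP9, and their log2 changes lay between -0.14 and 0.17. CASP6, an executioner, and CASP8, the initiator of the extrinsic route, had TWEAK replicates above the UT replicates without passing the test (adjusted p = 0.290 and 0.516). CASP1 had 3, 0 and 0 counts in UT and 10, 3 and 3 counts in TWEAK replicates of SKBR3, and CASP10 had 1 to 3 counts in every SKBR3 library, so neither passed the filter on low counts. Without that filter the adjusted p of CASP1 was 0.111.

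Apoptosome genes and inhibitors of apoptosis were not called. APAF1 was at 17.7, 18.4 and 16.6 CPM in UT and 16, 10.4 and 14.8 CPM in TWEAK replicates. The groups did not overlap and TWEAK replicate 2 was the lowest. The log2 change of APAF1 was -0.36 (adjusted p = 0.160), or -0.19 without that library (adjusted p = 0.140, where the alternatives together gave 0.00839 to 0.421). BIRC6, a large ubiquitin-ligating inhibitor and the member with the most exonic bases (18535) after CFLAR, was at 228, 216 and 183 CPM in UT replicates. It was at 209 and 219 CPM in TWEAK replicates 1 and 3 and 129 CPM in TWEAK replicate 2, so its log2 change was -0.18 with all libraries and 0.029 without that one. The log2 values of CYCS and XIAP were -0.080 and 0.032, with groups that overlapped. DIABLO changed by 0.16 (adjusted p = 0.723). CYCS passed as lower without TWEAK replicate 2 (log2 change -0.11, adjusted p = 0.0971), where the alternatives together reached 0.793.

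RIPK3, the kinase that starts necroptosis, was at 3.84, 3.76 and 5.77 CPM in UT and 6.02, 6.13 and 6.30 CPM in TWEAK replicates of SKBR3. UT replicate 3 lay just below the TWEAK replicates. The increase was 0.46 on the log2 scale (95% interval 0.11 to 0.81) and missed the threshold with an adjusted p of 0.123, which was 0.0117 without UT replicate 3 and 0.408 without UT replicate 2, the ends of its range. MLKL, its effector, changed by -0.034 with overlapping groups. Among the 28 tested members that were not called, the 95% interval of the change lay within 0.5 on the log2 scale for 20 and reached beyond it for 8.

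**Figure D2:**
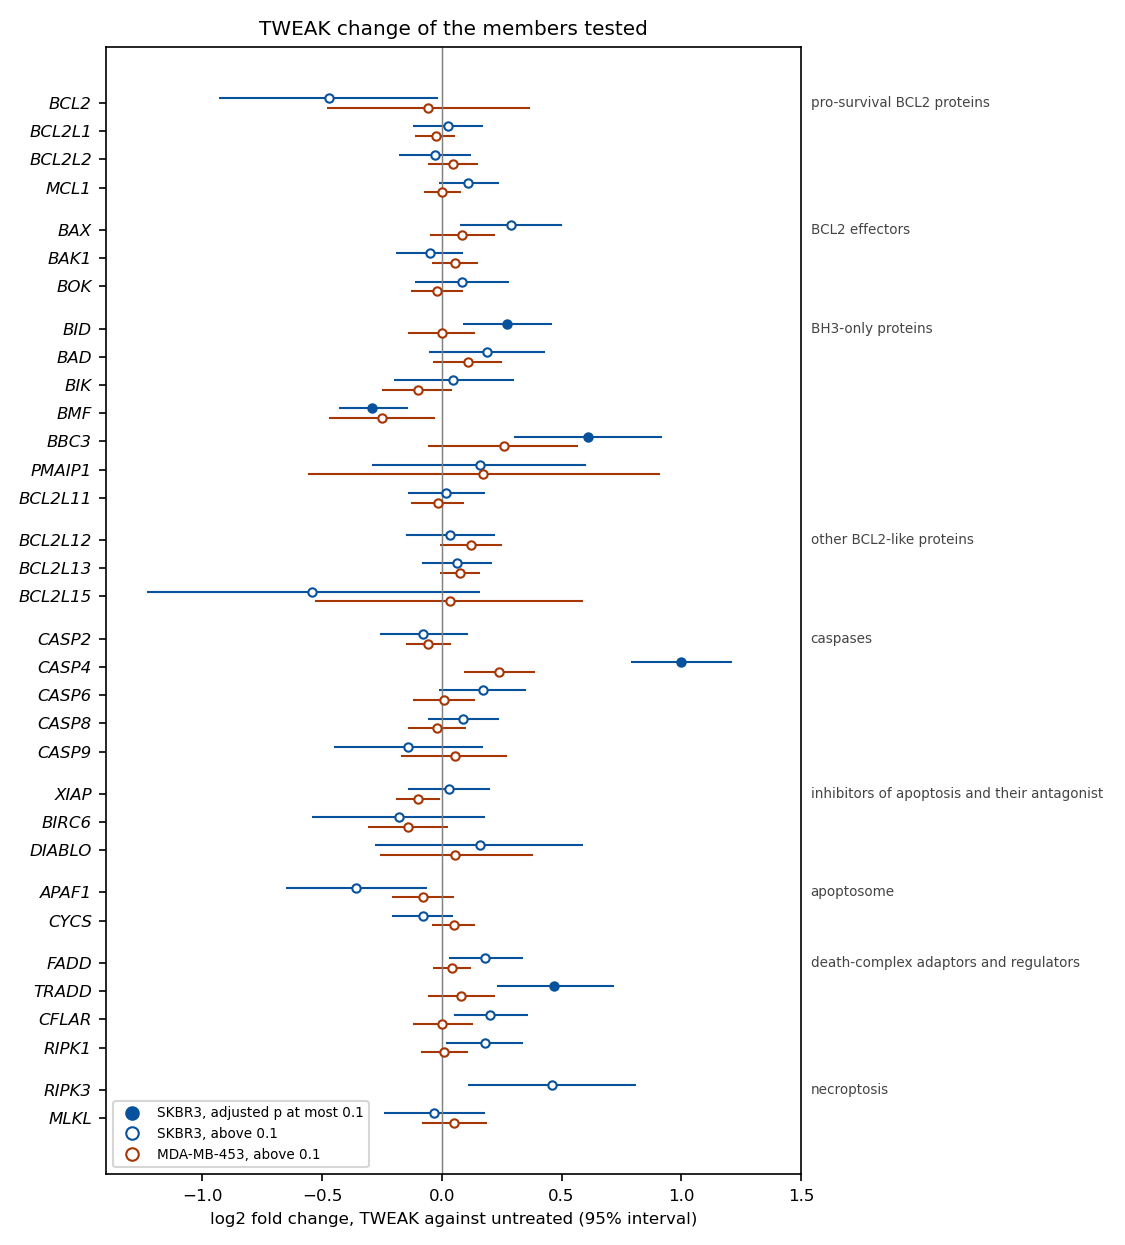
log2 fold change (horizontal axis) of each member tested, TWEAK against UT, with its 95% interval, for SKBR3 (blue) and MDA-MB-453 (brown); rows are genes grouped by role, and filled points passed an adjusted p of 0.1. In SKBR3, 5 points are filled, CASP4 at 1.0 lies farthest from 0, and none is filled in MDA-MB-453.

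The sequences before the start sites of the called genes are shown because these genes changed in SKBR3 under a ligand that signals to NF-κB, and the composition of their promoters can be compared. RefSeq gives 31 of the 38 members a promoter entry (GRCh38.p14), of which the first listed start of each gene was used, and TRADD and RIPK3 are among those named only. The 250 bases before the start were searched on both strands for the κB motif and for the AP-1 motif TGANTCA, neither of which overlaps the other in the stretches shown. Where over 30 of these bases lie in an annotated exon, only the longest run free of exons is printed, 5′ to 3′, with motif matches in capitals. The stretches lie on the minus strand at chr11:104968729-104968824 (CASP4), chr19:47232767-47232917 (BBC3), chr22:17774496-17774639 (BID) and chr15:40108880-40109129 (BMF). Those of CASP4 and BID lie inside the genes as GENCODE bounds them, so they come before an internal start and not before the outermost one. The 13 bases of the BMF stretch nearest the RefSeq start also lie inside the gene, in an annotated exon.
CASP4: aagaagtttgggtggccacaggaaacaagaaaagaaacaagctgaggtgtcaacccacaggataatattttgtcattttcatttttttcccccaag
BBC3: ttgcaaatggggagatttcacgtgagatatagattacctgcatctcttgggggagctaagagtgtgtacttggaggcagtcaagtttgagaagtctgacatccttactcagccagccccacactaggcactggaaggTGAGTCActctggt
BID: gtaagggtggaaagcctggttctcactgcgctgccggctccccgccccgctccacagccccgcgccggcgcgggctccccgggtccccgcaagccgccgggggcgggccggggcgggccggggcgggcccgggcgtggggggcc
BMF: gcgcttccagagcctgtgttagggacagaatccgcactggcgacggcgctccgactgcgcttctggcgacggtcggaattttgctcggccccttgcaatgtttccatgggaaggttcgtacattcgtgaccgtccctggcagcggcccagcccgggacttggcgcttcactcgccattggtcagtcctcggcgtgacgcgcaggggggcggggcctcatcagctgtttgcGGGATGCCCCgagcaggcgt

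In the whole window of 250 bases, BBC3 had 1 AP-1 match, which begins 113 bases before the start. BMF, the gene that fell, had 1 κB match, which begins 20 bases before the RefSeq start and runs into the 13 exonic bases of that window. CASP4 and BID had no match to either motif. The κB motif was present in 9.57% of the 27305 promoters and in 3 of the 31 members (9.68%), namely BMF, BIRC6 and CFLAR. The AP-1 motif was present in 6.6% of promoters and in 1 member. The windows differed in composition, with 2 CpG dinucleotides and a GC content of 38% in CASP4 and 30 CpG and 72% in BID, against a median of 11 CpG over all promoters. These are matches of letters in a short window and say nothing of whether a factor was bound.

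In MDA-MB-453, no member passed the test. Of the 38 members, 32 could be tested with edgeR, 0 were called and 3 (CASP4, BMF and XIAP) had an unadjusted p under 0.05, as did 1571 of the 14929 genes tested. DESeq2 also called 0, with 1 at an unadjusted p under 0.05. Over all genes tested in this line, 1.49% were called (1.29% higher and 0.208% lower). The median log2 fold change was 0.023 for the members and 0.0016 for all genes. TWEAK and UT replicates did not overlap for 5 members (15.6%), 3 higher and 2 lower, compared with 15.1% of all genes (8.20% higher and 6.88% lower).

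CASP4 was at 16.2, 17 and 18.6 CPM in UT and 22.1, 20.3 and 19.1 CPM in TWEAK replicates of MDA-MB-453. All TWEAK replicates were higher, UT replicate 3 and TWEAK replicate 3 lying next to each other. In MDA-MB-453 the log2 change was 0.24 (95% interval 0.092 to 0.39, adjusted p = 0.184). It passed when TWEAK replicate 2 of this line was left out (adjusted p = 0.0341), without the filter on low counts (0.0287) with the correction for GC content and length (0.0973), with the replicate number as a block (0.0515) and with both of these (0.0124), at log2 changes of 0.24 or 0.25. The highest adjusted p over the alternatives was 0.614.

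BMF was at 5.27, 5.21 and 5.83 CPM in UT and 4.92, 4.33 and 4.52 CPM in TWEAK replicates, again with no overlap and in the downward direction. The change was -0.25 on the log2 scale (standard error 0.10, adjusted p = 0.406). BBC3 was at 2.78, 2.73 and 2.24 CPM in UT and 2.88, 3.58 and 2.86 CPM in TWEAK replicates, with a log2 change of 0.26 (95% interval -0.058 to 0.57). XIAP had TWEAK replicates below UT replicates with a log2 change of -0.10, and BCL2L13, a mitochondrial BCL2-like protein, had them above with 0.074.

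For the other genes called in SKBR3, MDA-MB-453 gave small values. BID was at 20.6, 20.0 and 20.1 CPM in UT and 22.0, 18.6 and 20.1 CPM in TWEAK replicates, with an interval of -0.14 to 0.14 on the log2 scale. TRADD was at 24.1, 21.7 and 21.6 CPM in UT and 25.1, 21.9 and 24.2 CPM in TWEAK replicates, with an interval of -0.057 to 0.22. In both genes the groups overlapped. The 95% interval lay within 0.5 on the log2 scale for 29 of the 32 members tested, and the log2 changes of MCL1, CFLAR and RIPK1 were 0.0025, 0.0025 and 0.011. Without TWEAK replicate 2 of this line, 5 members were higher (BAX, BAD, BCL2L12, CASP4 and CYCS) and BIRC6 was lower, at changes of 0.24 or less in size on the log2 scale, while 13.8% of all genes were called.

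**Figure D3:**
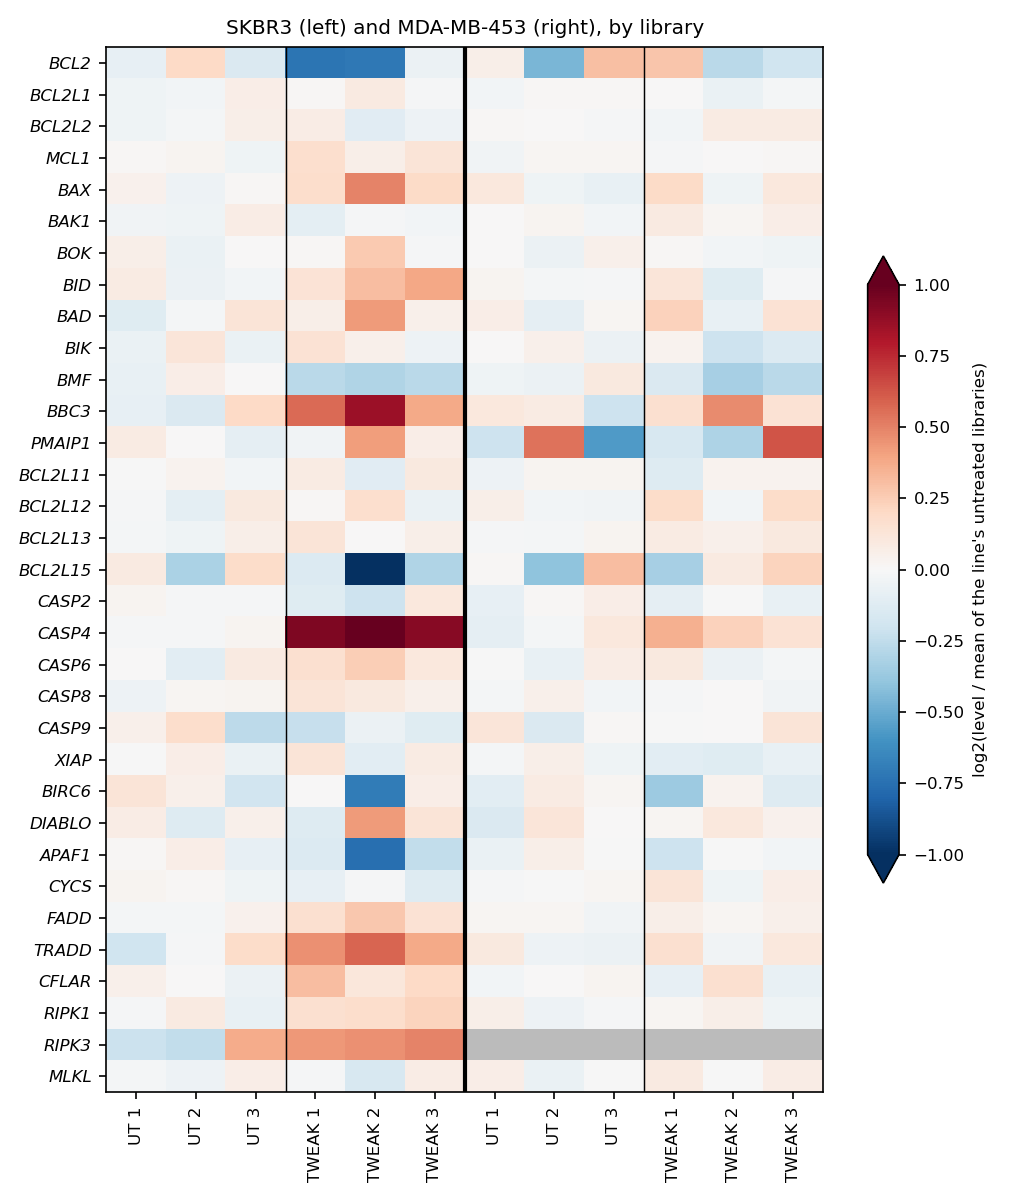
log2 ratio (colour, limited to between -1 and 1) of the level of each member in each library to the mean of the UT libraries of its line; columns are libraries, rows are the 33 members tested in SKBR3, and grey marks RIPK3, which had 0 counts in MDA-MB-453. CASP4 is dark red in all 3 TWEAK libraries of SKBR3, and BIRC6 and APAF1 have their lowest values in TWEAK replicate 2 of SKBR3.

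To ask whether the lines responded differently, the TWEAK change in SKBR3 was tested against that in MDA-MB-453 in a fit of 12 libraries, which are the same libraries as above. The TWEAK change of CASP4 was larger in SKBR3 than in MDA-MB-453 by 0.76 on the log2 scale (standard error 0.12, adjusted p = 9.76e-04), and CASP4 was the only one of 33 members to pass (3.03%, where 3.37% of all genes passed, 2.36% with a larger and 1.01% with a smaller value in SKBR3). It remained past the threshold in all 20 alternative settings, with differences from 0.66 to 0.82. After treatment the level in SKBR3, 19.7 ± 2.04 CPM (SD, n = 3), lay close to the 20.5 ± 1.52 CPM (SD, n = 3) of treated MDA-MB-453, whereas the UT levels were 9.81 ± 0.144 and 17.3 ± 1.19 CPM.

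For the other 4 genes called in SKBR3 a difference between the lines was not shown. The interaction was 0.40 for TRADD (95% interval 0.12 to 0.67, adjusted p = 0.156), 0.36 for BBC3 (-0.10 to 0.82, 0.616), 0.28 for BID (0.051 to 0.50, 0.283) and -0.034 for BMF (-0.26 to 0.20, 0.985). TRADD passed with an adjusted p of 0.0615 when UT replicate 3 of SKBR3 was left out, the alternatives together giving 0.0303 to 0.421. RIPK3 passed the filter through SKBR3 and is counted among the 33, but all MDA-MB-453 libraries were at 0, so nothing can be read from its value in this test. The intervals of 22 members not called lay within 0.5 on the log2 scale, so that larger differences remain possible for the others.

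Untreated SKBR3 and MDA-MB-453 differed in most of these genes. Of 33 members tested, 14 were higher in SKBR3 and 13 higher in MDA-MB-453 (81.8% together), while 87.2% of all genes differed between the lines (44.8% and 42.4% in these directions), so the share of members is no larger than the background. RIPK3 is among the 14 and passed the filter on low counts only through SKBR3, having 0 counts in MDA-MB-453. Replicates did not overlap between the lines for 28 members (84.8%), 14 in each direction, compared with 85.3% of all genes (43.6% and 41.7%). These UT libraries are also those of the TWEAK comparisons. The labels do not say whether their libraries were made together, so line and library preparation cannot be told apart. All 27 calls, RIPK3 included, held in every alternative setting in which the gene was tested.

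The largest difference was that of RIPK3 (chromosome 14, 24336025 to 24340022, minus strand). It had 0 counts in all 6 MDA-MB-453 libraries and 4.46 ± 1.14 CPM (SD, n = 3) in UT SKBR3. Against a floor of 3 counts in each MDA-MB-453 library it was at least 40.4-fold higher in UT SKBR3, and at least 59.7-fold higher under TWEAK. MLKL, in contrast, was present in both lines, at 9.23, 9.02 and 9.81 CPM in SKBR3 and 15.8, 14.4 and 15 CPM in MDA-MB-453, and was lower in SKBR3, with a log2 difference of -0.68.

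BH3-only genes were mostly higher in SKBR3, with 5 of 7 tested in that direction and 1 in the other, a group of few genes set against 44.8% and 42.4% of all genes. BID and BCL2L11 were higher by only 0.22 and 0.18 on the log2 scale. BMF was at 36.5, 40.3 and 38.4 CPM in SKBR3 and at 5.27, 5.21 and 5.83 CPM in MDA-MB-453, a log2 difference of 2.82 (standard error 0.074, adjusted p = 2.66e-22). BBC3 was at 6.86, 6.54 and 8.33 CPM in SKBR3 and 2.78, 2.73 and 2.24 CPM in MDA-MB-453, with a log2 difference of 1.49 (standard error 0.13). The groups of both genes lay far apart. BIK, whose product sits at the endoplasmic reticulum, went the other way, at 5.10, 5.83 and 5.11 CPM in SKBR3 and 19.3, 20.0 and 18.5 CPM in MDA-MB-453 (log2 difference -1.84, standard error 0.084). PMAIP1 was low in both lines, at 1.32 ± 0.0820 and 0.599 ± 0.245 CPM (SD, n = 3 each, log2 difference 1.14), and BAD did not pass (log2 difference 0.037, 95% interval -0.087 to 0.16).

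The effectors were weighted differently in the lines. BAK1 was at 98.2, 97.5 and 106 CPM in SKBR3 and 35.9, 36.5 and 35.1 CPM in MDA-MB-453, a log2 difference of 1.49 (standard error 0.049), whereas BAX was lower in SKBR3, with a log2 difference of -1.04. Per kb of exon, BAK1 made up 69.1% ± 1.16 (SD, n = 3) of the summed level of the 3 effector genes in UT SKBR3 and 36.8% ± 1.18 (SD, n = 3) in UT MDA-MB-453. The corresponding shares of BAX were 12.9% and 39.7%, and those of BOK 18.0% and 23.5%, although BOK in CPM was higher in SKBR3 by 0.20 on the log2 scale. Among the other BCL2-like genes, BCL2L12 was higher in SKBR3 by 0.36, BCL2L13 was lower there with -0.43, and BCL2L15 did not pass (0.35).

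The pro-survival genes showed a similar shift between the most abundant pair. Per kb of exon, MCL1 made up 64.8% ± 1.46 (SD, n = 3) of the summed level of the 5 pro-survival genes in UT SKBR3 and 44.8% ± 0.264 (SD, n = 3) in UT MDA-MB-453, and BCL2L1 made up 23.2% and 46.0%. MCL1 was at 372, 376 and 358 CPM in SKBR3 and 226, 235 and 235 CPM in MDA-MB-453, while BCL2L1 was at 86.6, 87.3 and 93.2 CPM and at 157, 162 and 162 CPM. The log2 differences were 0.68 for MCL1, 0.54 for BCL2L2 and -0.84 for BCL2L1. BCL2 was low in both lines, at 0.234% and 0.248% of the group, and BCL2A1 had at most 1 count in any library.

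All 4 death-complex genes were lower in SKBR3 than in MDA-MB-453, as were 42.4% of all genes. FADD was at 27.0, 27.1 and 28.2 CPM in SKBR3 and 85.3, 85.3 and 82.2 CPM in MDA-MB-453 (log2 difference -1.61, standard error 0.050). RIPK1 was at 22.0, 23.6 and 21.1 CPM in SKBR3 and 64.4, 59.8 and 61.2 CPM in MDA-MB-453 (-1.47, standard error 0.055). TRADD and CFLAR had log2 differences of -1.21 and -0.31, and no replicate of any of the 4 genes overlapped between the lines. TWEAK-treated SKBR3, at 13.4 ± 0.986 CPM (SD, n = 3) of TRADD, therefore still lay below UT MDA-MB-453, at 22.4 ± 1.43 CPM (SD, n = 3).

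The initiator and executioner genes were divided. CASP2 was at 42.0, 41.0 and 40.9 CPM in SKBR3 and 89.8, 95.9 and 99.2 CPM in MDA-MB-453, with a log2 difference of -1.19 (standard error 0.049). CASP4 and CASP6 were lower in SKBR3, with log2 differences of -0.81 and -0.47, and CASP8 was higher by 0.51. CASP9 did not pass (log2 difference -0.20, 95% interval -0.45 to 0.058), but did so as lower in SKBR3 under the correction for GC content and length and without UT replicate 2 of either line. CYCS, the most abundant member in CPM in UT SKBR3, was at 556, 552 and 532 CPM there and 178, 179 and 182 CPM in MDA-MB-453 (log2 difference 1.61, standard error 0.037), while its partner APAF1 was lower in SKBR3, with a log2 difference of -0.92. XIAP was nearly level (-0.048, 95% interval -0.15 to 0.054), and BIRC6 was higher in SKBR3 by 0.52.

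**Figure D4:**
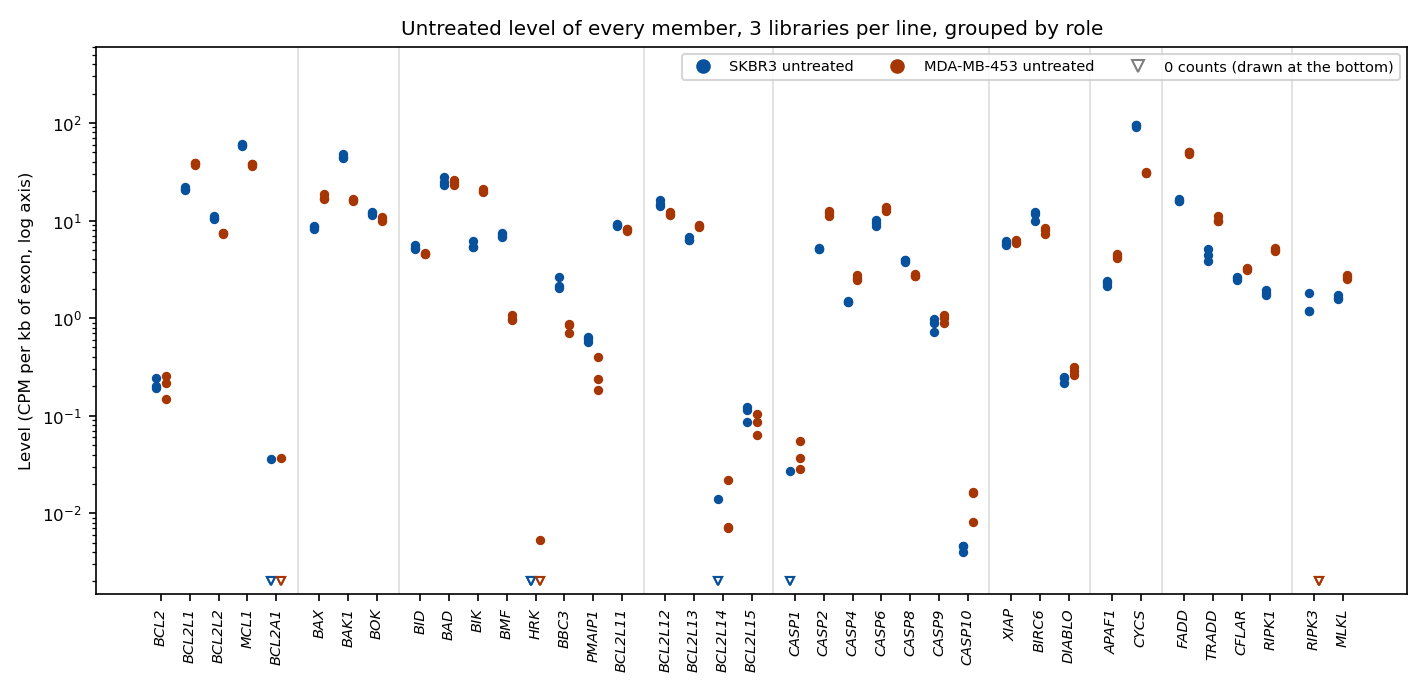
Level of every member in untreated cells, in CPM per kb of exon on a log axis, with 3 libraries per line (SKBR3 blue, MDA-MB-453 brown) and genes grouped by role; triangles at the bottom mark libraries with 0 counts. RIPK3 is at 0 in all untreated MDA-MB-453 libraries, the 4 death-complex genes are lower in SKBR3, and BMF is about 7-fold higher there (7.08-fold in the fit).

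Per kb of exon, levels ranged widely in each line. CYCS reached 94.4 ± 2.20 CPM per kb (SD, n = 3) in UT SKBR3, followed by MCL1 and BAK1 at 59.3 ± 1.55 and 45.5 ± 2.20. In UT MDA-MB-453 the highest was FADD at 49.3 ± 1.06 (SD, n = 3), followed by BCL2L1 and MCL1 at 38.2 ± 0.582 and 37.2 ± 0.838. BCL2L1 lay slightly above MCL1 in each of these libraries, at 37.5, 38.5 and 38.5 beside 36.3, 37.7 and 37.7. BCL2A1, HRK, BCL2L14, CASP1 and CASP10 had at most 13 counts in any library and did not pass the filter on low counts in any comparison with all libraries. Without that filter, CASP1 was called lower in untreated SKBR3 and the others were not called. DIABLO had only 36 to 76 counts per library. It was at 1.72, 1.49 and 1.69 CPM in UT SKBR3 and 1.82, 2.19 and 2.02 CPM in UT MDA-MB-453. These groups did not overlap, but the test was not passed (log2 difference -0.29, 95% interval -0.65 to 0.078, adjusted p = 0.133), except under the correction for GC content and length and without UT replicate 1 of MDA-MB-453. It shares 31.5% and 16.4% of its exonic bases with 2 overlapping genes on the same strand, so its level is uncertain. FADD, BCL2L1, BCL2L12 and BAD share over 20% of their exonic bases with genes on the opposite strand, and the counting setting for strand is not stated. The partner of FADD held at most 5 counts and that of BCL2L1 at most 2, whereas IRF3, opposite BCL2L12, held at least 1696 and GPR137, opposite BAD, at least 1430.

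The wider pathway was followed through 42 genes outside the set, in 4 lists of receptors and ligands, TNF receptor signalling partners, other caspases and inhibitors of apoptosis, and other mitochondrial death factors. In SKBR3, 13 of 34 tested (38.2%) were higher with TWEAK and 0 lower, compared with 6.60% and 3.82% of all genes, and the median log2 change was 0.21. These lists were drawn up with results of the same libraries known, so the shares describe the listed genes and are no independent evidence of a direction. The increases were found in 5 of 8 receptors and ligands, 5 of 14 signalling partners, 2 of 4 caspases and inhibitors (BIRC3 and CASP14) and 1 of 8 mitochondrial factors (the mitophagy receptor BNIP3L). The death receptor FAS rose by 3.81 on the log2 scale, from between 0.165 and 0.467 CPM to between 4.01 and 4.80 CPM. The UT libraries held only 4 to 13 counts of FAS, so the size of this change is uncertain (95% interval 3.24 to 4.39). FAS passed the filter on low counts only through its TWEAK libraries, where it was high, so its call rests on the change itself. It is included in the counts above. TNFRSF10B, a TRAIL receptor, rose by 0.46, TNFRSF12A by 0.36, TNFRSF25 by 0.37 and TNFRSF1A, the receptor that recruits TRADD, by 0.22. The adaptors TRAF1, TRAF2 and TRAF3 rose by 3.30, 0.84 and 0.55, and the deubiquitinases TNFAIP3 (A20) and CYLD by 1.28 and 0.39. BIRC3 (cIAP2), which binds TRAF2, rose by 3.42, CASP14 by 1.65 and BNIP3L by 0.34.

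In MDA-MB-453, 5 of 32 genes of these lists (15.6%) were higher and 0 lower, compared with 1.29% and 0.208% of all genes, with a median of 0.060. They were BIRC3 (3.57), TNFAIP3 (2.44), TRAF3 (0.46), CYLD (0.32) and TNFSF10 (0.26), which encodes TRAIL. The test between lines passed with a larger change in SKBR3 for TRAF1 (2.89), TRAF2 (0.75), TNFRSF10B (0.30) and BNIP3L (0.41), and with a larger change in MDA-MB-453 for TNFAIP3 (-1.15). FAS also passed (2.64, standard error 0.54). It had only 5 to 17 counts in the MDA-MB-453 libraries and few in untreated SKBR3. It was therefore well counted in treated SKBR3 alone, where it was high, and no difference in its response is read. CASP14 had at most 10 counts in any MDA-MB-453 library and was tested between the lines through its SKBR3 counts alone, so no difference in its response is read. BIRC5 (survivin) was not called in either line.

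In untreated cells, 27 of 32 genes of these lists (84.4%) differed between the lines, 17 higher in SKBR3 and 10 higher in MDA-MB-453, while 87.2% of all genes differed (44.8% and 42.4%), so these genes did not stand out by their share. Higher in SKBR3 were the receptors TNFRSF25 (log2 difference 3.64), TNFRSF10A (0.66), TNFRSF12A (0.35) and TNFRSF1A (0.14), and CASP14 (3.19, again through its SKBR3 counts) and BIRC3 (1.77). The signalling genes TNFAIP3 (3.98), TAB2 (2.14), RBCK1 (0.73), MAP3K7 (0.30), TRAF6 (0.24) and TRAF3 (0.15) and the mitochondrial genes VDAC2 (1.44), AIFM1 (0.45), ENDOG (0.35), HTRA2 (0.25) and VDAC1 (0.15) were also higher there. Higher in MDA-MB-453 were TNFSF10 (-6.07), TRAF5 (-4.45), IKBKG (-1.76), BNIP3L (-1.50), TRAF1 (-1.38), OTULIN (-1.31), SHARPIN (-0.60), TRAF2 (-0.51), BNIP3 (-0.41) and BIRC2 (-0.11). TNFSF10 thus had the log2 difference largest in size of the genes tested in these lists. Its counts in SKBR3 are not given here, so the size of this difference is uncertain.

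**Figure D5:**
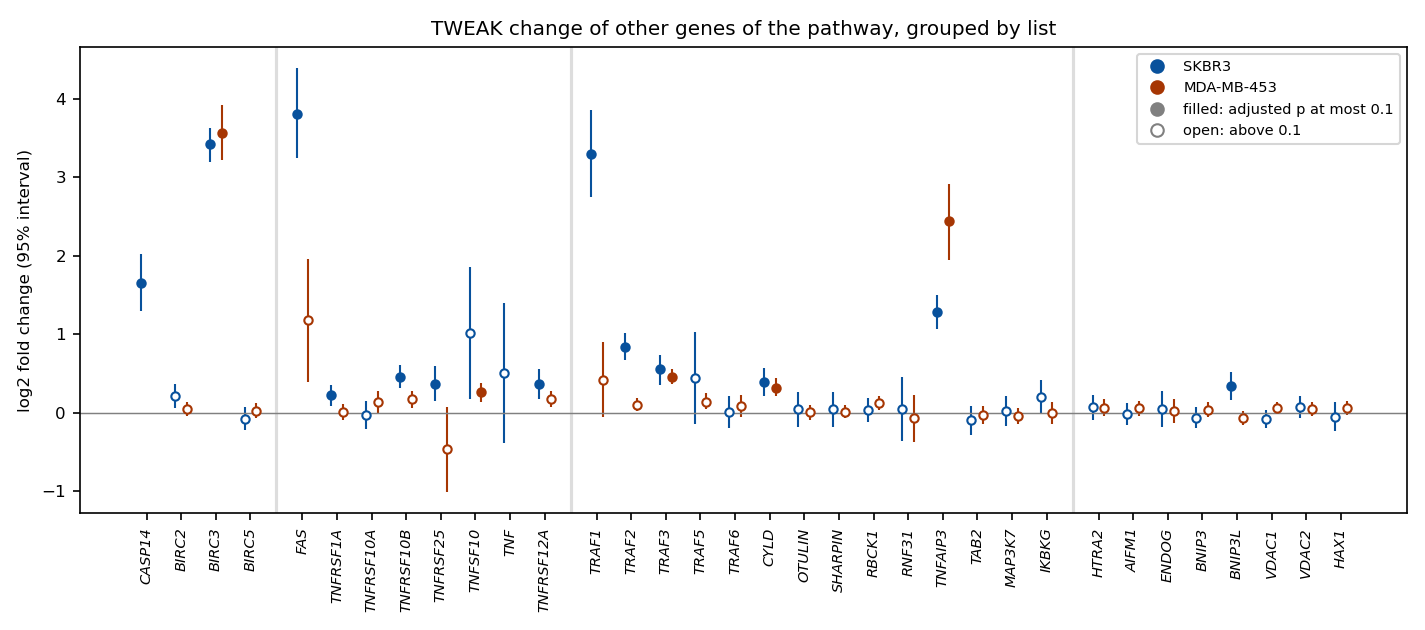
log2 fold change (vertical axis) with its 95% interval of the other genes of the pathway tested in SKBR3, for SKBR3 (blue) and MDA-MB-453 (brown), grouped by list from left to right as other caspases and inhibitors, receptors and ligands, signalling partners, and mitochondrial factors; filled points passed an adjusted p of 0.1. FAS, TRAF1 and BIRC3 lie between 3.30 and 3.81 in SKBR3, and BIRC3 and TNFAIP3 lie highest in MDA-MB-453, at 3.57 and 2.44.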

How the data were processed

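Poly-A RNA of SKBR3 and MDA-MB-453 was sequenced by the authors on HiSeqX. The authors used Trimmomatic for trimming, STAR for alignment to hg38 and featureCounts for gene-level counting; the deposited counts are raw whole numbers, and versions, strand setting, annotation release and duplicate handling are not given in the sources used here. All 38 members matched 1 row each through GENCODE 44, whose union of exons gave lengths. Here edgeR 4.0.16 in R 4.3.3 was used (filterByExpr, TMM, quasi-likelihood test, two-sided, prior count 0.125, Benjamini-Hochberg over all genes tested, threshold 0.1), on the 6 libraries of each comparison or on 12 for the interaction, without a replicate term. Every member was accounted for, and every member past the threshold in the main fit was named. The procedure was tested on simulated data, and no outcome of that is given here. Alternatives were DESeq2 1.42.0, its size factors, no filter, at least 10 counts in every library, a threshold of 0.05, the replicate number as a block, a correction for GC content and length, all 12 libraries in 1 fit, and each library left out. Members and lists were chosen with earlier results of these data known. A few genes of the wider pathway are not reported here. Columns of authors' comparisons were not used. Counts carry no molecular identifiers, so floors cover counting error only.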

Additional observations from a re-analysis of the deposited data

Results flagged for a closer look

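The response of CASP4 to TWEAK differed between the lines by a test of the difference itself: the log2 fold change in SKBR3 exceeded that in MDA-MB-453 by 0.76 (standard error 0.12, adjusted p = 9.76e-04 in edgeR's interaction test over 12 libraries). All 3 TWEAK replicates lay above all 3 UT replicates in each line. The UT level of CASP4 was lower in SKBR3 (9.81 ± 0.144 CPM, SD, n = 3) than in MDA-MB-453 (17.3 ± 1.19 CPM, SD, n = 3).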

How the results depend on the processing

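In SKBR3, 4 members were higher and 1 lower with TWEAK. With a correction for GC content and length 9 were higher and 2 lower, and with all 12 libraries in 1 fit 9 and 2. BAX, CFLAR, RIPK1 and RIPK3 (higher) and APAF1 (lower) were gained in both. MCL1 (higher) was gained with the correction and FADD (higher) in the 1 fit. Without the filter on low counts 6 were higher and 2 lower, with 5.87% of all genes called. Leaving out single libraries gave 1 to 8 higher (1 without UT replicate 1 or 2, 8 without TWEAK replicate 2) and 0 to 2 lower. The share of all genes called then lay between 5.76% (without UT replicate 2) and 17.4% (without TWEAK replicate 2). Over all genes, 63.3% of the calls in SKBR3 were increases, but 46.3% under the GC and length correction; in MDA-MB-453 these shares were 86.1% and 70.3%. In MDA-MB-453, against 0 and 0, 1 member (CASP4) was higher without the filter and with the correction, and leaving out single libraries gave 0 to 5 higher and 0 to 1 lower, the upper values without TWEAK replicate 2. Of all genes in that line, 1.49% were called in the main fit and 1.45% without the filter. The share was 2.30% with the correction and 13.8% without TWEAK replicate 2. For the difference between the lines, 1 member was larger in SKBR3, or 2 (CASP4 and TRADD) with the correction, and 1 to 2 with libraries left out. The share of all genes passing that test was 3.37%, or 5.98% with the correction. Causes were not tested. The counts of members that differed between untreated lines stayed at 13 to 14 higher in SKBR3 and 13 to 15 higher in MDA-MB-453 (gains were CASP1, CASP9 and DIABLO).

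The labels do not tie the replicate numbers to a day or batch, and the numbers were not taken to pair the samples, since not every correlation of a pair was over 0.1: those of same-numbered UT and TWEAK deviations were 0.22, -0.18 and -0.29 in SKBR3, whereas MDA-MB-453 gave 0.17, 0.17 and 0.025. The paper states that cell line experiments were run 3 times on different days, but does not link the replicate numbers to these days. In MDA-MB-453, but not in SKBR3, every sample correlated best with its own number, a hint from the data and not the design. With the replicate number as a block, 3 members were higher (BID was lost) and 1 lower in SKBR3, while CASP4 (adjusted p = 0.0515) was higher and BIRC6 (0.0341) lower in MDA-MB-453, where 490 genes in all were higher and 404 lower against 192 and 31 without it. In SKBR3 the block called 7.73% of all genes. With block and correction together SKBR3 had 5 higher and 2 lower, MDA-MB-453 had 1 (CASP4, 0.0124) and 1, and 2 members had a larger change in SKBR3. The shares of all genes in these 3 tests were 15.1%, 7.28% and 5.33%. The block left the interaction at 1 and the untreated lines at 14 and 13. No member call reversed under any alternative run. The 5 members with at most 13 counts in any library did not pass the low-count filter with all libraries, and the smallest change called with TWEAK was 1.21-fold (BID).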
